A study of Mus musculus with 12 samples.

Results

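The core circadian clock genes Arntl, Clock, Npas2, Per1, Per2, Per3, Cry1, Cry2, Nr1d1 and Nr1d2 were taken by symbol from the gene table of the series. All 10 symbols were found among its 13552 genes, and all 10 were among the 11240 genes tested, those at 1 RPKM or more in at least 3 hearts. RPKM counts reads relative to exon length and to the depth of a heart, but does not correct for differences in RNA makeup between hearts. Factors that bring the median gene to the same level (median-ratio scaling) still ran from 0.816 in KI TAC heart 5 to 1.16 in WT TAC heart 10. Results that change with such rescaling are therefore given as well.

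RNA was sequenced from the hearts of 12 mice on the C57BL/6 background, collected 9 h after surgery. Wild-type (WT) mice and knock-in (KI) mice carrying the Bcl-xL S14A mutation, in which serine 14 of Bcl-xL, an anti-apoptotic protein of the Bcl-2 family, is replaced with alanine, had either transverse aortic constriction (TAC), which overloads the left ventricle with pressure, or a sham operation. Each combination of genotype and surgery held 3 mice. Per the study the mice were adult males under pentobarbital anesthesia, and the knock-in mice were homozygous, from a line that carries the mutation in the germline. WT mice were bought and KI mice came from the laboratory's own line, so genotype and origin cannot be told apart. The mice were housed in alternating light and dark, and the hour of the day at which each heart was collected is not given in the sources used here.

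The clock is a transcriptional loop that most cells of the body run. The activators Clock and Arntl (Bmal1), or Npas2 in place of Clock, bind DNA as pairs and switch on the Per, Cry and Nr1d genes. Per and Cry proteins return to the nucleus and block the activators, while Nr1d1 and Nr1d2 (Rev-erb alpha and beta) repress Arntl directly. In mouse heart, as in liver, Arntl and the Per genes peak at opposite times of day, and Nr1d1 peaks before the Per genes.

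To show what the factors of the loop could read at these genes, the 250 bases before each RefSeq start site (GRCm38.p6) were searched on both strands for an E-box (CACGTG, bound by Clock and Arntl), its variant CACGTT, a D-box (TTANGTAA, bound by Dbp, Tef, Hlf and Nfil3), a cyclic AMP element (TGACGTCA) and a Rev-erb and Ror element (TAGGTCA). Of the clock genes 9 had an entry, with 13 windows, and Per2 had none. The 3 windows below are those with an E-box or a D-box, with matches in capitals. Per3 holds 2 D-box matches, Per1 an E-box, and Cry1 an E-box and the variant, read on the other strand.
Per3, chr4:151044666-151044915, minus strand: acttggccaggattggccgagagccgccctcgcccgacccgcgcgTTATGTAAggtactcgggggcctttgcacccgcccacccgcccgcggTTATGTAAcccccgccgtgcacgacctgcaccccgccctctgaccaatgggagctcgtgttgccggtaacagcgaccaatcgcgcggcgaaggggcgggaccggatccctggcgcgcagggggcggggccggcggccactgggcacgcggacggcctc
Per1, chr11:69098699-69098948, plus strand: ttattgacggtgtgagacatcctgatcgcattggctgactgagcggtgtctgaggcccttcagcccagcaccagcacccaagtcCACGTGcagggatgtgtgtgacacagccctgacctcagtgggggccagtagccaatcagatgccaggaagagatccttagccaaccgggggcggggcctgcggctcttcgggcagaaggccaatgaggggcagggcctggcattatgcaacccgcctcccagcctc
Cry1, chr10:85185055-85185304, minus strand: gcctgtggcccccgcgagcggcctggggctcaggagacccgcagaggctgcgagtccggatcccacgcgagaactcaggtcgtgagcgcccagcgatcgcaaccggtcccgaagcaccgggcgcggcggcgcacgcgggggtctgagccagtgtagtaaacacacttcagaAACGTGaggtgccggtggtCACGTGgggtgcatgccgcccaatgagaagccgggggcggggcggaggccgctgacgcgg
The D-boxes of Per3 begin 205 and 158 bases before its start site, the E-box of Per1 166 bases before and that of Cry1 60 bases before. Of all 32851 windows in the table, 2.06% held a D-box, 6.02% an E-box and 3.85% the variant, which was also present in Cry2 and Nr1d1. The cyclic AMP element (1.55% of all windows) and the Rev-erb and Ror element (2.23%) matched no clock gene window. A match describes the letters of the window and not a bound site.

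Depth was 23650186 to 32455164 reads on genes per heart, recovered from the steps between low values. At that depth the clock genes drew from 25 reads, for Arntl in its lowest heart, to 8633 reads, for Per1 in its highest. Markers of cardiomyocytes were high in every heart (summed 12342 to 22447 RPKM for 5 genes), although Myh6 was called lower in WT TAC than in WT sham (-1.15 ± 0.26, limma adjusted p = 0.0129) and Myl2 higher in KI TAC than in WT TAC (0.86 ± 0.25, 0.0447). Markers of atria, T cells, white fat, lung and skeletal muscle were not analysed here. The macrophage markers (4 of 4 genes measured) summed to 65.3 to 111 RPKM in WT sham, 132 to 192 in WT TAC, 70.8 to 95.8 in KI sham and 76.4 to 103 in KI TAC. In WT TAC the fibroblast markers summed to 123 to 542 RPKM (99.5 to 150 in WT sham). Those of smooth muscle summed to 52.0 to 122 (33.7 to 43.6) and those of red cells to 54.6 to 79.4 (104 to 118). In KI TAC these sums were 81.6 to 149, 38.8 to 79.7 and 71.0 to 185 RPKM. In KI sham they were 119 to 199, 25.8 to 53.9 and 94.3 to 173 RPKM. Col1a1 (67.4 to 461 RPKM) and Acta2 (48.8 to 116) made up most of the WT TAC sums of fibroblasts and smooth muscle. Between the WT groups Dcn (0.00 ± 0.24) and Myh11 (-0.08 ± 0.25) differed by less than their standard error. Pdgfra differed by 0.58 ± 0.19 and Lum by 0.47 ± 0.39. The neutrophil markers S100a8 and S100a9 summed to at most 0.791 RPKM in sham hearts and to 2.48 to 18.5 RPKM after TAC. Their part in the clock values was not tested, and in whole hearts fewer cells of a type and less RNA per cell cannot be told apart.

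Among the sham hearts, the 2 that carry mouse number 1, one of each genotype, stood apart in the clock genes, which was noticed after the values were seen. Both lay outside the range of the other 4 sham hearts, on the same side, for 8 of the 10 genes, against 17.4% of all genes tested. Arntl and Nr1d1 were higher in them, and Per1, Per2, Per3, Cry1, Cry2 and Nr1d2 were lower. Per2 was 6.47 and 3.91 RPKM in these hearts against 17.9 to 26.3 RPKM in the other 4, and Nr1d1 was 83.9 and 53.5 RPKM against 16.5 to 29.9. Their shares of mitochondrial reads were 6.36% in the WT heart and 12.5% in the KI heart, the lowest and the highest of the 12 hearts, against 10.1% to 11.9% in the other sham hearts. The counts, and the values of the genes most affected, are therefore also given without these hearts. The part of the mitochondrial share in their clock values was not tested.

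**Figure D1:**
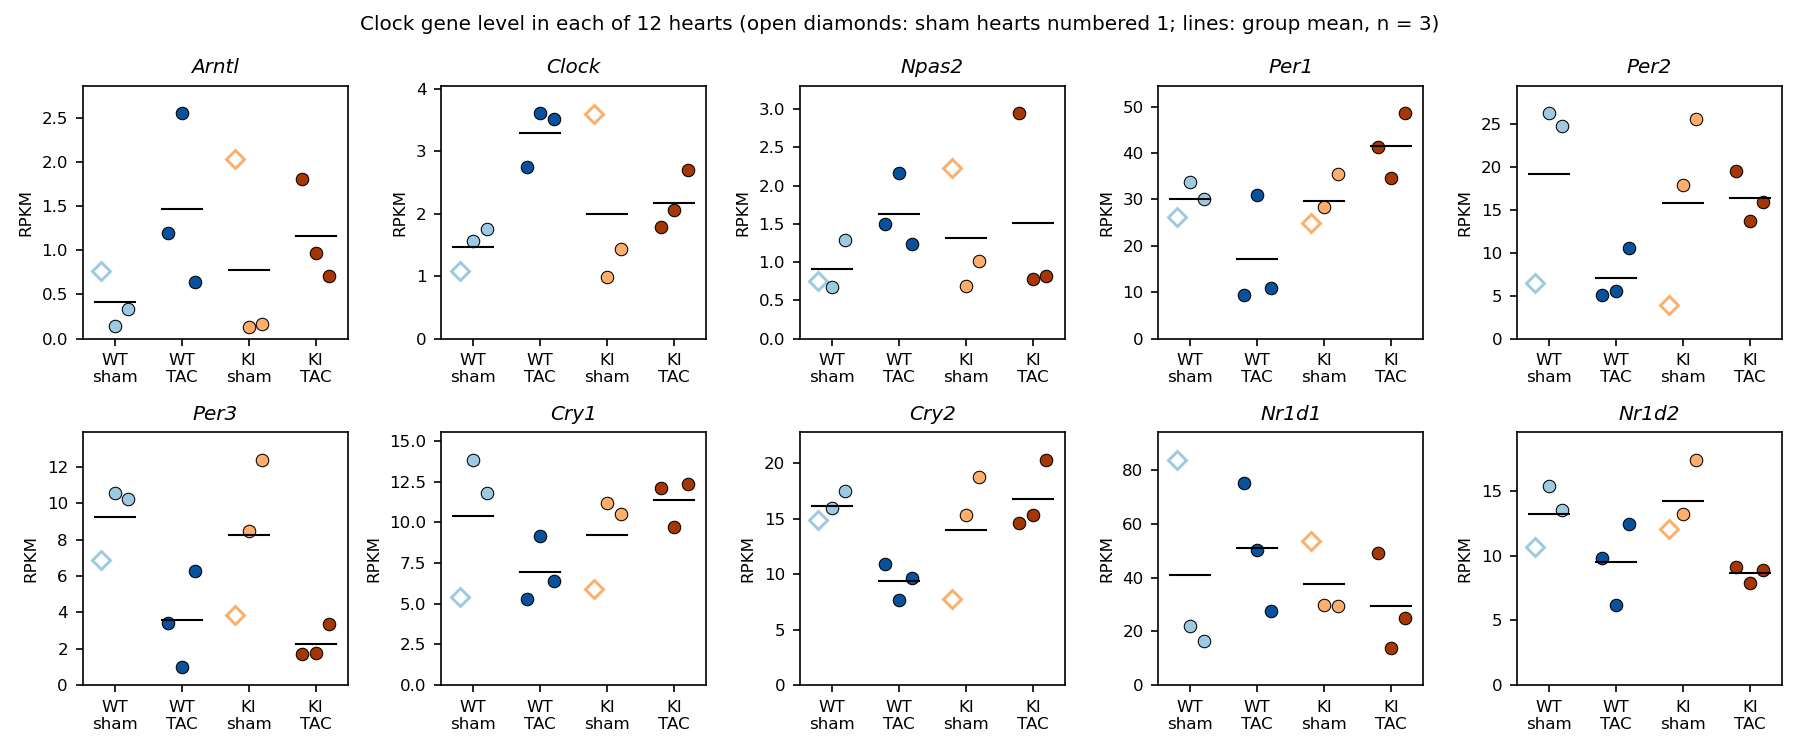
RPKM of each clock gene in the 12 hearts, with 1 panel per gene, a vertical axis from 0, points for single hearts, open diamonds for the sham hearts numbered 1 and lines for the means of 3 hearts. Clock is higher in all 3 WT TAC hearts than in WT sham, Per1 is higher in all 3 KI TAC hearts than in the WT TAC hearts, and the open diamonds are the lowest sham values in the Per2 and Cry1 panels and the highest in the Nr1d1 panel.

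The question of the comparison of WT TAC with WT sham is what pressure overload did to the clock in hearts with unmodified Bcl-xL. The 3 activators had higher means after TAC and 6 of the 7 repressors lower means, but none of the 10 passed the test. Differences are on the scale of log2(RPKM + 1), which understates the change of genes near 1 RPKM, and were tested with limma across all genes with Benjamini-Hochberg adjustment, a gene being called at an adjusted p below 0.05. By limma 0 of 10 were called, against 11.6% of all genes, and 4 of 10 were at an unadjusted p below 0.05, against 27.9% of all genes. A second test, limma-voom on recovered reads, called 1, Clock, against 11.3% of all genes. The values of the 2 groups did not overlap for 3 of 10 genes (Clock, Per3 and Cry2), against 35.1% of all genes, a share near the background.

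Clock (ENSMUSG00000029238, chr5:76209868-76304792) encodes the histone acetyltransferase that pairs with Arntl. It was at 1.08, 1.57 and 1.76 RPKM in WT sham hearts and at 2.75, 3.61 and 3.51 RPKM in WT TAC hearts. Each WT TAC heart was above each WT sham heart. In log2 units Clock differed by 0.80 ± 0.25 (SE; limma adjusted p = 0.0525), and it was called without KI sham heart 1 or KI sham heart 2, which enter through the shared spread (0.00858 and 0.0346), and in a fit of the WT groups alone (0.0179). Clock was at 3.59, 0.985 and 1.43 RPKM in KI sham and at 1.78, 2.05 and 2.70 RPKM in KI TAC. The KI groups thus overlapped and differed by 0.17 ± 0.25. KI sham hearts 2 and 3 were below every KI TAC heart, and KI sham heart 1 was above them. Without both sham hearts numbered 1, Clock differed by 0.52 ± 0.17 in KI (limma adjusted p = 0.0553) and by 0.68 ± 0.17 in WT hearts (0.0337).

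Arntl (ENSMUSG00000055116, chr7:113207465-113314126) encodes Bmal1, the partner of Clock, and had the lowest mean RPKM of the clock genes in each group. It was at 0.765, 0.141 and 0.337 RPKM in WT sham and at 1.19, 2.56 and 0.641 RPKM in WT TAC. KI sham hearts had 2.04, 0.132 and 0.160 RPKM and KI TAC hearts 1.81, 0.969 and 0.704 RPKM. In both genotypes all TAC hearts were above sham hearts 2 and 3, and sham heart 1 lay within or above the TAC range. The log2 fold change was 0.75 ± 0.36 in WT and 0.41 ± 0.36 in KI hearts, neither past the threshold (limma adjusted p = 0.189 and 0.428). Without the sham hearts numbered 1 it was 0.92 ± 0.29 and 0.88 ± 0.29 (limma adjusted p = 0.0700 and 0.0501). Leaving out 1 heart gave as little as 0.45 in WT (without WT TAC heart 9) and 0.17 in KI (without KI sham heart 2). By limma-voom, which adds no pseudocount of 1 RPKM, the log2 fold change was 1.87 ± 0.84 in WT and 1.69 ± 0.82 in KI hearts, with adjusted p = 0.163 and 0.151.

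Npas2 (ENSMUSG00000026077, chr1:39193731-39363236), the paralog that can stand in for Clock, gave 0.754, 0.680 and 1.29 RPKM in WT sham and 1.50, 2.16 and 1.24 RPKM in WT TAC. It was at 2.23, 0.685 and 1.02 RPKM in KI sham and at 2.95, 0.778 and 0.821 RPKM in KI TAC. The groups overlapped in both genotypes, and 1 heart, KI TAC 5, carried most of the KI TAC mean. The differences were 0.46 ± 0.30 in WT and 0.07 ± 0.30 in KI on the log2 scale. The KI value turned to -0.30 without KI TAC heart 5 and to -0.13 without KI sham heart 2. At its highest, with 1 heart left out, it was 0.34.

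Per3 (ENSMUSG00000028957, chr4:151003652-151044665), the Per paralog that is least needed for rhythm and whose window holds the D-boxes, was the member with the most negative difference after TAC in both genotypes when all hearts were kept, and in KI but not WT hearts, where Per2 was lower, without the sham hearts numbered 1. It was at 6.90, 10.6 and 10.2 RPKM in WT sham and at 3.40, 1.01 and 6.27 RPKM in WT TAC, without overlap. It was at 3.88, 8.46 and 12.4 RPKM in KI sham and at 1.72, 1.77 and 3.35 RPKM in KI TAC, again without overlap. In KI hearts Per3 fell by 1.41 ± 0.42 on the log2 scale (limma adjusted p = 0.0269). In WT hearts the difference was -1.34 ± 0.42 (limma adjusted p = 0.0547), and the interaction, the difference between the 2 responses, was -0.08 ± 0.59 (limma adjusted p = 0.960). Per3 in WT passed with quantile or median-ratio scaling (limma adjusted p = 0.0436 and 0.0447), without WT TAC heart 10 (-1.77, 0.0131) and without KI sham heart 1, which enters through the shared spread (0.0352). Without WT TAC heart 9, the lowest, it was -0.84 (limma adjusted p = 0.188).

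Per1 (ENSMUSG00000020893, chr11:69095217-69109960), the immediate-early member of the Per family that light and glucocorticoids induce, was the member called between the genotypes after TAC. It was at 26.1, 33.8 and 30.1 RPKM in WT sham and at 24.9, 28.3 and 35.5 RPKM in KI sham. WT TAC hearts had 9.46, 31.0 and 10.8 RPKM, and KI TAC hearts 41.2, 34.7 and 48.6 RPKM. WT TAC hearts 7 and 10 were below every sham heart, WT TAC heart 9 was within the sham range, and 2 of the 3 KI TAC hearts were above every sham heart. In group means, WT TAC (17.1 ± 12.1 RPKM, SD, n = 3) was followed by KI sham (29.6 ± 5.40) and WT sham (30.0 ± 3.84), which did not differ beyond their spread, and KI TAC (41.5 ± 6.97).

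In KI TAC against WT TAC hearts Per1 was called, with a log2 fold change of 1.41 ± 0.33 (2.66-fold in RPKM + 1; limma adjusted p = 0.0209), higher in 3 of 3 hearts. Within each genotype Per1 was not called, at -0.96 ± 0.33 in WT (limma adjusted p = 0.0756) and 0.48 ± 0.33 in KI (limma adjusted p = 0.318). The interaction was 1.44 ± 0.47 (limma adjusted p = 0.207). The call between the TAC groups was lost without WT TAC heart 7 (1.11, limma adjusted p = 0.107), WT TAC heart 10 (1.20, 0.0595), KI TAC heart 5 (1.41, 0.0509) or KI TAC heart 6 (1.53, 0.0591), and in a fit of these 2 groups alone (0.0815). Without WT TAC heart 9 Per1 was called lower in WT TAC than in WT sham (-1.47, 0.00151) and the interaction was called (1.95, 0.00920).

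Per2 (ENSMUSG00000055866, chr1:91415982-91459324), the Per protein most needed for rhythm, varied widely within the sham groups. WT sham hearts had 6.47, 26.3 and 24.8 RPKM, and WT TAC hearts 5.10, 5.50 and 10.5 RPKM. KI sham hearts had 3.91, 17.9 and 25.6 RPKM, and KI TAC hearts 19.5, 13.7 and 16.0 RPKM. All 3 KI TAC hearts were above all 3 WT TAC hearts. In log2 units Per2 differed by -1.18 ± 0.56 in WT, 0.35 ± 0.56 in KI and 1.16 ± 0.56 between KI TAC and WT TAC, none past the threshold (limma adjusted p = 0.191, 0.688 and 0.180). Without the sham hearts numbered 1, Per2 was called lower in WT TAC than in WT sham, at -1.79 ± 0.28 (limma adjusted p = 0.00424), and the KI difference turned to -0.38 ± 0.28.

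Cry2 (ENSMUSG00000068742, chr2:92403646-92434043), a flavoprotein that binds and silences the activators, was at 14.9, 16.0 and 17.5 RPKM in WT sham and at 10.9, 7.64 and 9.62 RPKM in WT TAC. KI sham hearts had 7.77, 15.3 and 18.8 RPKM, and KI TAC hearts 14.6, 15.3 and 20.4 RPKM. WT TAC hearts were below every WT sham and every KI TAC heart, while the KI groups overlapped. The log2 differences were -0.73 ± 0.26 in WT (limma adjusted p = 0.0832), 0.31 ± 0.26 in KI (0.409) and 0.77 ± 0.26 between KI TAC and WT TAC (0.0682). The last was past the threshold with quantile or median-ratio scaling, at 0.87 and 0.95 (limma adjusted p = 0.0431 and 0.0332). Without KI sham heart 1 both it (0.0240) and the WT difference (0.0228) were, and the KI difference was -0.03. The WT difference also passed in a fit of the WT groups alone (limma adjusted p = 0.0308). With 1 heart left out it ran from -0.84 to -0.60, with limma adjusted p up to 0.222.

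Cry1 (ENSMUSG00000020038, chr10:85131700-85185064), the stronger repressor of the 2 cryptochromes, gave 5.43, 13.9 and 11.8 RPKM in WT sham and 5.31, 9.17 and 6.38 RPKM in WT TAC. It was at 5.90, 11.2 and 10.5 RPKM in KI sham and at 12.1, 9.74 and 12.4 RPKM in KI TAC. As for Per2, the KI TAC hearts lay above the WT TAC hearts, with a difference of 0.66 ± 0.30 (limma adjusted p = 0.158). Against sham it differed by -0.46 ± 0.30 in WT (limma adjusted p = 0.348) and 0.32 ± 0.30 in KI (0.478), and the WT value was -0.22 without WT sham heart 2. The lowest sham values were those of hearts numbered 1, and the sham groups overlapped with TAC in both genotypes.

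Nr1d1 (ENSMUSG00000020889, chr11:98767932-98775333), which encodes the heme receptor Rev-erb alpha, was the only repressor with a higher mean in WT TAC than in WT sham, and in no comparison did its groups separate. It was at 83.9, 21.9 and 16.5 RPKM in WT sham and at 75.1, 50.3 and 27.6 RPKM in WT TAC. KI sham hearts had 53.5, 29.9 and 29.5 RPKM, and KI TAC hearts 49.3, 13.9 and 25.0 RPKM. The difference was 0.57 ± 0.56 in WT and -0.47 ± 0.56 in KI on the log2 scale. Without the sham hearts numbered 1 it was 1.27 ± 0.47 in WT (limma adjusted p = 0.121) and -0.19 ± 0.47 in KI (0.805), and leaving out 1 heart at a time gave 0.13 to 1.27 in WT and -0.92 to -0.0413 in KI. Of its exon bases 8.55% (263 bases) overlap exons of Thra, the thyroid hormone receptor alpha gene, on the opposite strand. Thra was at 23.6 to 36.5 RPKM in the 9 hearts of the other groups and at 12.8, 10.3 and 17.5 RPKM in KI TAC, where it fell by 1.01 ± 0.22 against KI sham (limma adjusted p = 0.00545). The library kit keeps the strand, and whether counting used it is not given in the sources used here. Arntl and Cry2 share 33 and 295 exon bases with antisense genes that were not analysed here.

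Nr1d2 (ENSMUSG00000021775, chr14:18204054-18239127), which encodes Rev-erb beta, was at 10.7, 15.4 and 13.6 RPKM in WT sham and at 9.84, 6.17 and 12.5 RPKM in WT TAC. It was at 12.1, 13.2 and 17.5 RPKM in KI sham and at 9.18, 7.89 and 8.88 RPKM in KI TAC. The WT groups overlapped, and each KI TAC heart was below each KI sham heart. The difference was -0.47 ± 0.23 in WT and -0.65 ± 0.23 in KI (limma adjusted p = 0.193 and 0.0540), and the latter was called without WT TAC heart 9 (0.0251) or WT TAC heart 10 (0.0320), through the shared spread, and in a fit of the KI groups alone (0.0446). The WT value was -0.22 without WT TAC heart 9, the lowest.

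**Figure D2:**
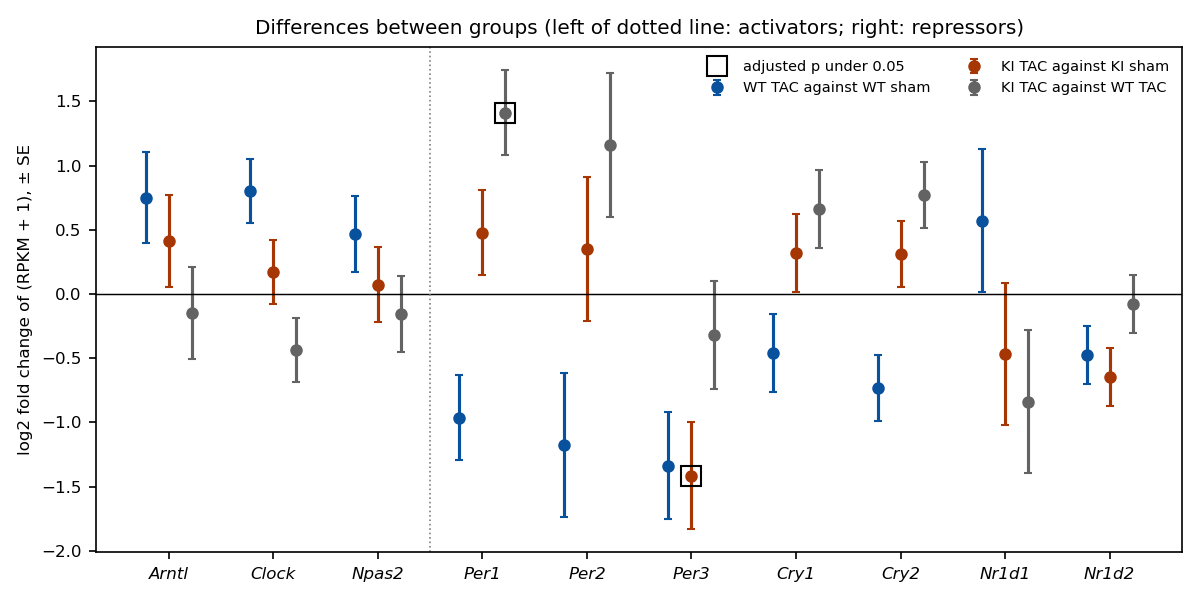
Log2 fold change of RPKM + 1 for each clock gene (points) with its standard error (bars) for surgery within WT hearts, surgery within KI hearts and genotype among TAC hearts. Squares mark the 2 called values, Per3 in KI at -1.41 and Per1 between the TAC groups at 1.41, and the WT points lie below 0 for all repressors but Nr1d1.

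The comparison of KI TAC with KI sham asks the same question in hearts whose Bcl-xL lacks serine 14. Of the 10 clock genes 1 was called, Per3, against 23.3% of all genes, and 2 were at an unadjusted p below 0.05, against 36.8% of all genes. The groups did not overlap for 2 genes, Per3 and Nr1d2, both lower after TAC, against 38.3% of all genes. The activators had differences of 0.07 to 0.41 on the log2 scale with a median of 0.17, where WT hearts had 0.46 to 0.80 with a median of 0.75. On the limma-voom scale Arntl was at 1.69 in KI and 1.87 in WT hearts, Clock at 0.34 and 1.20, and Npas2 at 0.12 and 0.89. The repressors split, 4 with higher means (Per1, Per2, Cry1 and Cry2, at 0.31 to 0.48) and 3 with lower means (Per3, Nr1d1 and Nr1d2), and their median was 0.31 in KI against -0.73 in WT hearts. The KI medians rest on the sham hearts numbered 1. Without both, the activator median was 0.52 in KI and 0.68 in WT hearts, and the repressor median turned to -0.19 in KI, with 5 of 7 lower, and was -0.82 in WT hearts. The Per3 call was lost without KI sham heart 2 (-1.34, limma adjusted p = 0.0763), KI sham heart 3 (-1.09, 0.123), KI TAC heart 5 (-1.29, 0.0849) or KI TAC heart 6 (-1.31, 0.0836).

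Leaving out both sham hearts numbered 1, an alternative chosen after the data had been seen and because of their values in these same clock genes, left 11134 genes to test and raised the WT count. Removing hearts that were low for Per2, Per3, Cry1 and Cry2 raises the sham means and narrows the spread of these genes, so the counts that follow are a description and are no support for a difference from other genes. Clock (0.68 ± 0.17, limma adjusted p = 0.0337) was then called higher in WT TAC. Per2 (given above), Per3 (-1.51 ± 0.42, limma adjusted p = 0.0484), Cry1 (-0.82 ± 0.22, 0.0389) and Cry2 (-0.78 ± 0.21, 0.0416) were called lower, which makes 5 of 10 against 8.66% of all genes. In KI hearts Per3 alone was called (-1.82 ± 0.42, limma adjusted p = 0.0133), 1 of 10 against 19.6% of all genes. Cry2 in KI hearts turned from 0.31 to -0.03. Between KI TAC and WT TAC, where these hearts enter only through the shared spread, Per1 (limma adjusted p = 0.0272), Per2 (0.0179), Cry1 (0.0465) and Cry2 (0.0261) were called higher in KI TAC, 4 of 10 against 12.5% of all genes. For KI sham against WT sham and for the interaction the count stayed at 0, against 0.018% and 0% of all genes.

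The genotypes were compared directly after TAC and after sham. In KI TAC against WT TAC hearts 1 of 10 clock genes was called, Per1, against 11.0% of all genes, and 3 were at an unadjusted p below 0.05 (Per1, Cry1 and Cry2), against 30.3% of all genes. The groups did not overlap for 5 of 10 (Per1, Per2, Cry1 and Cry2 higher in KI TAC, Clock lower), against 29.5% of all genes. Clock differed by -0.44 ± 0.25. The median of all genes tested was -0.12 in this comparison and -0.10 in KI TAC against KI sham, and relative to it Per1 stood at 1.53. Arntl (-0.15) and Npas2 (-0.16) turned to 0.01 with quantile normalization, so no direction is given for them.

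Between KI sham and WT sham 0 of 10 clock genes were called by limma, against 0.0178% of all genes, and 0 were at an unadjusted p below 0.05, against 0.329% of all genes. Limma-voom called 0 as well. The differences ran from -0.36 for Per2 to 0.23 for Npas2 with standard errors of 0.23 to 0.56, so differences of that size or somewhat larger were not detectable. For the interaction of genotype and surgery 0 of 10 were called by limma, as were 0% of all genes, and 0 by limma-voom. At an unadjusted p below 0.05 there were 2, Per1 and Cry2 (1.04 ± 0.37), against 14.8% of all genes. With 3 hearts a group the smallest two-sided p of an exact permutation test is 0.1, so such tests on single genes could not pass 0.05.

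**Figure D3:**
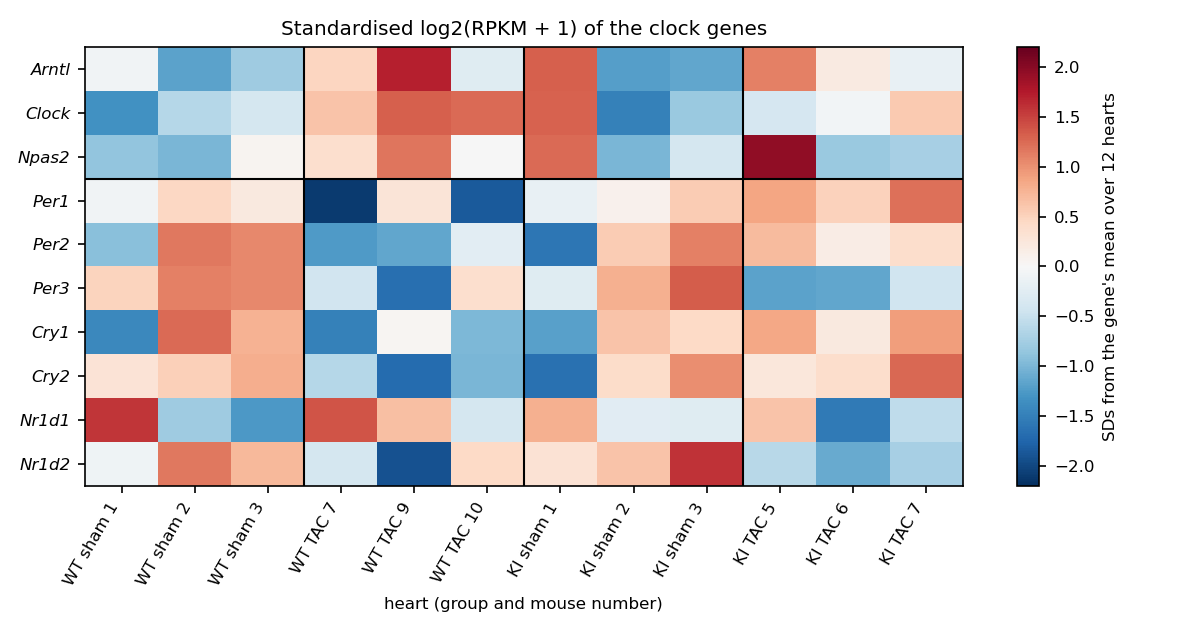
Log2(RPKM + 1) of the 10 clock genes in each heart, in SDs from the mean of the gene over the 12 hearts (red higher, blue lower), with black lines between groups and between activators and repressors. Sham hearts 2 and 3 of both genotypes are blue for Arntl and red for Per2, Per3 and Cry1, and the sham hearts numbered 1 are blue for Per2 and Cry1 and red for Nr1d1.

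Activators were set against repressors in each heart as the mean log2(RPKM + 1) of the 3 activators minus that of the 7 repressors, a description with no test. The values were -3.00, -3.51 and -3.12 in WT sham and -1.98, -1.48 and -2.20 in WT TAC, so every WT TAC heart was above every WT sham heart. They were -1.69, -3.47 and -3.54 in KI sham and -2.33, -2.43 and -2.83 in KI TAC, so the KI TAC hearts lay between KI sham heart 1 and KI sham hearts 2 and 3. Every KI TAC heart was below every WT TAC heart. The group means were -3.21 ± 0.27 (SD, n = 3) in WT sham, -1.89 ± 0.37 in WT TAC, -2.90 ± 1.05 in KI sham and -2.53 ± 0.26 in KI TAC.

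Ratios within a heart set genes with different phases in the daily loop side by side, again as a description. The ratio of Per2 to Arntl in RPKM was 8.45, 187 and 73.5 in WT sham hearts and 1.92, 135 and 160 in KI sham hearts. After TAC it was 4.27, 2.15 and 16.4 in WT hearts and 10.8, 14.1 and 22.7 in KI hearts. The 4 sham hearts numbered 2 or 3 were thus all at 73.5 or above, and the 6 TAC hearts and the sham hearts numbered 1 all at 22.7 or below. The ratio of Nr1d1 to Per2 was 13.0, 0.830 and 0.667 in WT sham, 14.7, 9.14 and 2.62 in WT TAC, 13.7, 1.67 and 1.15 in KI sham and 2.52, 1.02 and 1.57 in KI TAC. The WT TAC hearts were above the KI TAC hearts in this ratio, and the sham hearts numbered 1 lay between the 2 highest WT TAC hearts.

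**Figure D4:**
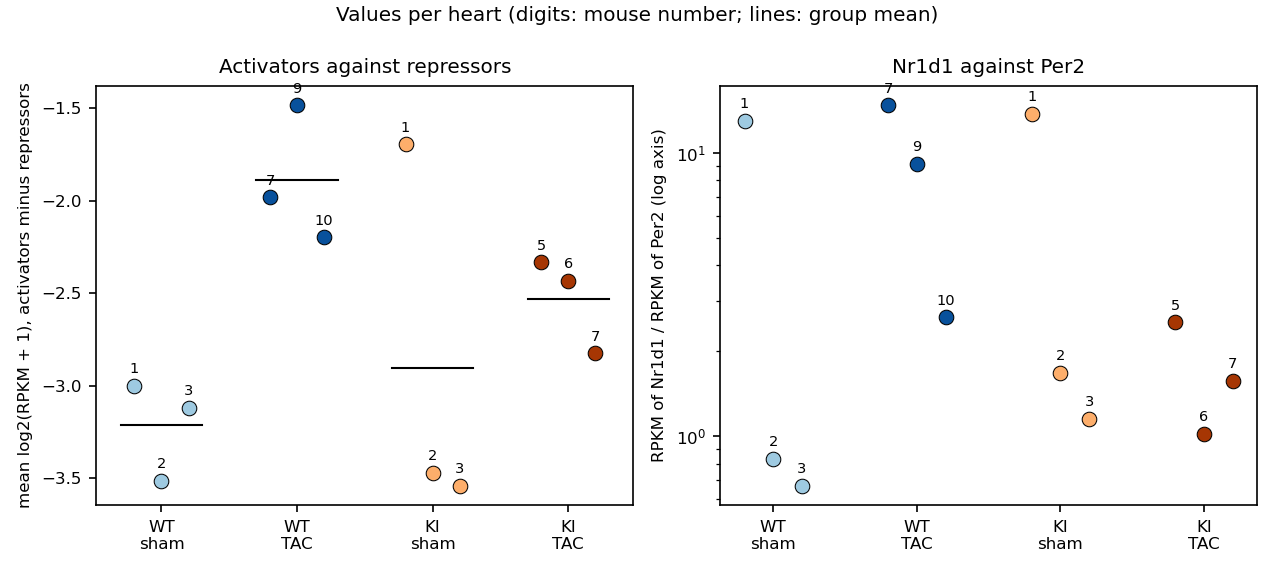
Left, mean log2(RPKM + 1) of the activators minus that of the repressors in each heart, and right, the ratio of Nr1d1 to Per2 in RPKM on a log axis. Points are hearts with their mouse number and lines, on the left, are means of 3 hearts. WT TAC hearts are between -2.20 and -1.48 on the left, and the sham hearts numbered 1 are at 13.0 and 13.7 on the right.

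Likeness between members was measured as the root mean square difference of their standardised values over the 12 hearts, where 0 is the same pattern. Per3 and Nr1d2 were the most alike (0.337), followed by Per2 and Cry1 (0.524), Per2 and Cry2 (0.600) and Arntl and Npas2 (0.605). Per3 and Arntl were the least alike (1.85). Among all genes tested the nearest to Per1 was Ddit4 (0.272), an inhibitor of mTORC1, followed by Timp4, Depp1, Sult1a1 and Kank3 (0.372 to 0.435). The nearest genes were picked for their likeness over these same 12 hearts, so highs and lows shared with the clock gene follow from the selection. Ddit4 was at 17.1, 69.0 and 24.2 RPKM in WT TAC hearts 7, 9 and 10 and at 108 to 143 RPKM in KI TAC. The nearest to Nr1d1 were Nos2, which encodes inducible nitric oxide synthase, Hhex, Bbc3, Nck2 and Neurl3 (0.325 to 0.451). Nos2 was at 7.50 and 7.12 RPKM in the sham hearts numbered 1 and at 2.88 to 3.95 RPKM in the other sham hearts. The nearest to Arntl were Plekhg1, Cdk17, Slc38a4, Ptpre and Nedd9 (0.376 to 0.476).

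Of 24 other genes of the clock pathway, 22 were tested. In WT TAC against WT sham 3 were called, all lower, against 11.6% of all genes, and 9 were at an unadjusted p below 0.05, against 27.9% of all genes, with a median of 0.00 against 0.04 for all genes. They were Hlf (-1.33 ± 0.29, limma adjusted p = 0.00958), a D-box activator, Ciart (-1.30 ± 0.28, 0.0100), a repressor of the Clock and Arntl pair, and Usp2 (-0.90 ± 0.27, 0.0450), a deubiquitinase of clock proteins. In KI TAC against KI sham 2 were called lower and 4 higher, 6 of 22 against 23.3% of all genes, a share near the background, with a median of -0.16 against -0.10 for all genes. Hlf (-1.44 ± 0.29, limma adjusted p = 0.00310) and Dbp (-1.92 ± 0.56, 0.0253), another D-box activator, fell.

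The genes that rose in KI hearts were Nfil3 (2.03 ± 0.43, limma adjusted p = 0.00477), the D-box repressor, Csnk1d (0.76 ± 0.17, 0.00568), the kinase that marks Per proteins for decay, Fbxw11 (0.54 ± 0.17, 0.0344), which helps to degrade them, and the deacetylase Sirt1 (0.45 ± 0.15, 0.0454). Nfil3 was at 6.81, 8.62 and 7.32 RPKM in KI sham and at 79.2, 28.2 and 17.2 RPKM in KI TAC, where heart 5 was the highest. In WT it was at 5.44 to 9.81 RPKM after sham and 8.02 to 18.5 RPKM after TAC. Nfil3 was the 1 pathway gene called between KI TAC and WT TAC (1.56 ± 0.43, limma adjusted p = 0.0368), although WT TAC heart 9 was above KI TAC heart 7, and 1 of 22 compares with 11.0% of all genes. Dbp was at 134.7, 70.6 and 51.3 RPKM in WT sham and 45.7, 9.06 and 35.1 RPKM in WT TAC (-1.63 ± 0.56, limma adjusted p = 0.0753), against 25.4, 104.7 and 81.9 RPKM in KI sham and 14.4, 13.9 and 17.6 RPKM in KI TAC. The sham hearts numbered 1 were thus the highest WT and the lowest KI sham heart for Dbp. By limma 0 of 22 were called in KI sham against WT sham, where 0.0178% of all genes were, and 0 were at an unadjusted p below 0.05, against 0.329%. In the interaction 0 were called, as among all genes, and 1 was at an unadjusted p below 0.05, against 14.8% of all genes. Limma-voom also called 0 in both.

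**Figure D5:**
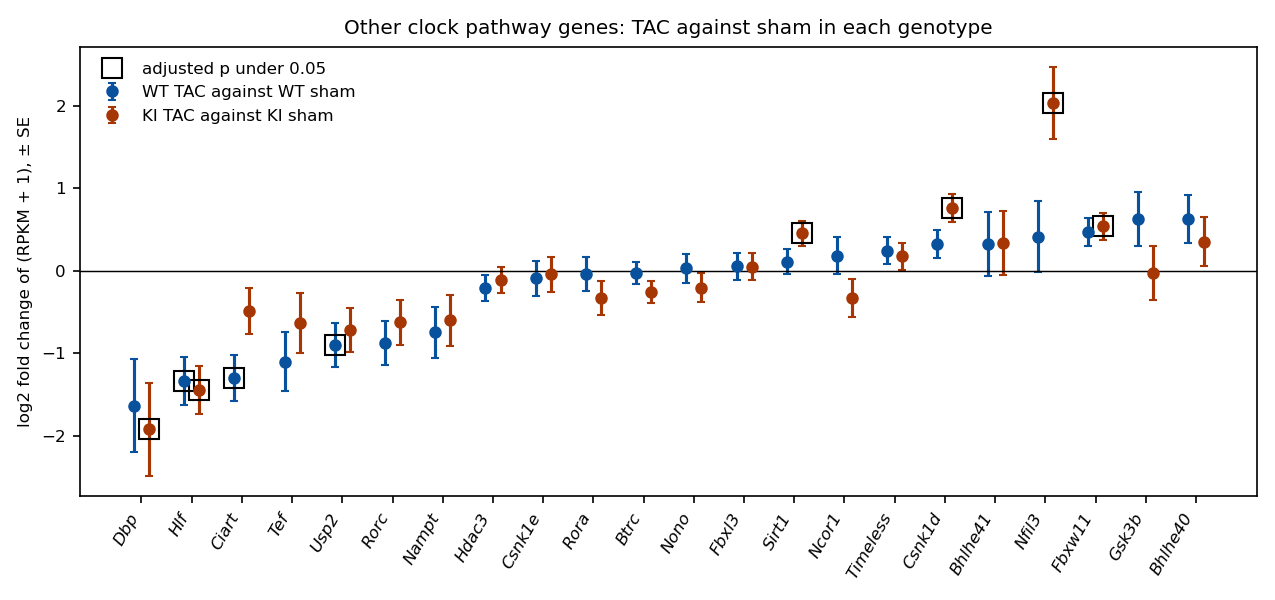
Log2 fold change of RPKM + 1 (points) with its standard error (bars) for 22 other clock pathway genes for TAC against sham within WT and within KI hearts, ordered by the WT value, with squares where a gene was called. Hlf is called lower in both genotypes at -1.33 and -1.44, and Nfil3 is called higher in KI hearts at 2.03.

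Since Per1 is a target of the glucocorticoid receptor as well as of the clock, 12 other genes that glucocorticoids induce are given beside it. The list was chosen with earlier results of these data known. Its counts are thus a description and no support for a difference from other genes. Between the TAC groups 9 of 12 were called, against 11.0% of all genes, all higher, with a median of 1.82 against -0.12 for all genes. Called or not, 11 were higher in KI TAC and 1 was lower. The largest changes were those of Mt2 (3.16 ± 0.54, limma adjusted p = 0.00638), a metallothionein, Pdk4 (2.62 ± 0.64, 0.0237), which restrains glucose oxidation, and Fkbp5 (2.20 ± 0.54, 0.0239), a chaperone of the receptor. Pdk4 was also higher in KI sham than in WT sham hearts, at 104 to 180 RPKM against 28.4 to 66.4 RPKM without overlap (1.54 ± 0.64, limma adjusted p = 1.00, unadjusted p = 0.0306), and its TAC groups overlapped. Fkbp5 was at 1.31, 9.29 and 2.38 RPKM in WT TAC hearts 7, 9 and 10 and at 16.4, 27.5 and 14.7 RPKM in KI TAC, without overlap. In the sham hearts numbered 1 it was at 1.30 and 1.07 RPKM, against 4.42 to 5.42 RPKM in the other sham hearts. Within KI hearts 7 of 12 were called, all higher, against 23.3% of all genes. In WT TAC against WT sham 1 was called higher (Mt2) and 2 lower, Ddit4 and Tsc22d3, of which Tsc22d3 is named after its values were seen, against 11.6% of all genes, and limma-voom called 0 higher and 2 lower. Between sham groups 0 were called by limma, against 0.0178% of all genes, and 1, Pdk4, was at an unadjusted p below 0.05, against 0.329%. For the interaction 0 were called, as among all genes, and 8 of 12 were at an unadjusted p below 0.05, against 14.8% of all genes. Limma-voom called 0 in both. Many of these genes answer other stress signals as well, and their part in the Per1 values was not tested.

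Bcl2l1, which encodes Bcl-xL and carries the knock-in, was at 7.04 to 15.4 RPKM in WT sham and 6.67 to 19.1 RPKM in KI sham hearts, which overlapped (0.13 ± 0.40, limma adjusted p = 1.00). It was at 6.59 to 17.2 RPKM in WT TAC and at 35.8, 37.0 and 24.5 RPKM in KI TAC hearts (1.64 ± 0.40, limma adjusted p = 0.0231). A change of 1 codon cannot be seen in the gene's total, so this value does not check the genotype labels.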

How the data were processed

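Hearts of 12 mice (3 per group, separate animals) were grouped by the genotype and treatment of their labels and are named by their labelled mouse numbers. The submitters' processing notes and the study's methods name Trimmomatic 0.39, HISAT2 2.2.1 on GRCm38, HTSeq 0.6.1 for counting, R 4.1.1, edgeR 3.18.1 and, separately, limma 3.32.10. The methods give 2 different Ensembl releases for the annotation and call the library paired-end but the sequencing single-read. The deposited values are RPKM per gene, made by the authors from read counts by a step not given in the sources used here. With exon lengths from GENCODE M21, 98.1% to 98.4% of low values (under 100 reads) were whole multiples of 1 read within 0.1 read, which gave the depths and recovered reads.

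Log2(RPKM + 1) of genes that reached 1 RPKM in 3 or more hearts was fitted with limma 3.58.1 in R 4.3.3 (empirical Bayes with trend, 4 group means, all 12 hearts, Benjamini-Hochberg over 11240 genes, threshold 0.05). On simulated data for WT TAC against WT sham (10842 genes), 200 genes were changed, in WT TAC only. There the script recovered 43.4% of 2-fold and 87.8% of 4-fold changes. Of its calls 7.39% were false, above the rate set by the threshold. In the data 1299 genes were called in this comparison, so these shares do not give the power here. A count test had been named for a table of counts, and the table used here holds RPKM. Named genes were all members, called pathway genes (at most 5 per direction), at most 3 glucocorticoid-responsive genes, overlapping genes, Bcl2l1 and the 5 genes nearest to Arntl, Nr1d1 and Per1. The members and gene lists were chosen with earlier results of these data known. Pathway genes Rorb and Fbxl21 were not analysed here. Alternatives were pseudocount 0.1, no filter, quantile and median-ratio scaling, fits of 2 groups, a threshold of 0.10, limma-voom, a replicate block, and leaving out hearts. Python 3.11.15, pandas 2.3.3 and matplotlib 3.10.9 were used. Intervals cover the spread between these animals.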

Additional observations from a re-analysis of the deposited data

How the results depend on the processing

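Of 1000 values of single clock genes under the alternatives, 911 kept their direction and side of the threshold, 48 turned direction, 9 lost a call and 32 gained one. Many could not turn direction. The threshold of 0.10, fits of 2 groups and leaving out a heart outside the groups compared keep the difference as it was. The 911 therefore overstates how stable the directions were. Pseudocount 0.1 and no filter moved no count of called clock genes by over 1.5 times. In WT TAC against WT sham 0 were called in the main analysis, 1 with quantile normalization (13.9% of all genes), 1 with median-ratio scaling (13.0%), 1 with limma-voom (11.3%), 2 in the fit of the 2 groups (10.6%), 4 at an adjusted p of 0.10 (18.4%), 0 to 3 when a heart was left out (5.21% to 13.5%) and 5 without both sham hearts numbered 1 (8.66%). In KI TAC against KI sham the count was 1, with 2 in the fit of the 2 groups (20.6%), 2 at 0.10 (32.3%) and 0 to 2 without a heart (12.9% to 26.7%). In KI TAC against WT TAC it was 1, with 2 under quantile (10.1%) or median-ratio scaling (11.6%), 0 in the fit of the 2 groups (1.92%), 2 at 0.10 (20.4%), 0 to 2 without a heart (1.38% to 16.2%) and 4 without both sham hearts numbered 1 (12.5%). The interaction gave 0 to 1 without a heart (0% to 2.07%; Per1, without WT TAC heart 9). The cause of these changes was not tested.

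Of the values that turned direction between KI TAC and WT TAC, quantile normalization gave 0.00953 for Arntl, 0.0126 for Npas2 and 0.00969 for Nr1d2, and median-ratio scaling 0.10 for Nr1d2. For the interaction, Per3 was 0.0827 with quantile normalization and 0.0806 with median-ratio scaling, and Nr1d2 0.0192 with the latter. Between the sham groups limma-voom gave -0.0565 for Arntl. Without both sham hearts numbered 1, chosen after seeing the data, Per2 was -0.38 and Cry2 -0.0338 in KI TAC against KI sham, and between the sham groups Arntl was -0.11, Clock -0.28, Npas2 -0.0896 and Cry2 0.0219.

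With 1 heart left out, KI TAC against WT TAC ran from -0.40 to 0.16 for Arntl, -0.54 to 0.0406 for Npas2, -0.33 to 0.13 for Nr1d2 and -0.82 to 0.11 for Per3. KI TAC against KI sham ran from -0.0814 to 0.52 for Clock, -0.0338 to 0.55 for Cry2, -0.30 to 0.34 for Npas2 and -0.38 to 0.84 for Per2. KI sham against WT sham ran from -0.28 to 0.43 for Arntl, -0.16 to 0.45 for Clock, -0.0358 to 0.43 for Npas2, -0.16 to 0.0828 for Per1, -0.97 to 0.37 for Per2, -0.57 to 0.16 for Per3, -0.48 to 0.15 for Cry1, -0.51 to 0.0753 for Cry2, -0.24 to 0.89 for Nr1d1 and -0.0476 to 0.21 for Nr1d2. The interaction ran from -0.59 to 0.13 for Arntl, -0.43 to 0.0302 for Nr1d2 and -0.58 to 0.35 for Per3. The activator minus repressor mean moved with pseudocount 0.1 to -4.21 in WT sham, -2.29 in WT TAC and -3.10 in KI TAC.

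The sham groups share mouse numbers 1, 2 and 3, and the TAC groups share only number 7, too few for a block. Deviations of same-numbered sham hearts from their group means correlated at -0.22, -0.30 and 0.44 over all genes tested, the measure by which pairing was decided, so the hearts were not treated as paired. Over the 10 clock genes the values were 0.69, 0.76 and 0.57. Deviations were taken from means of 3 hearts, so hearts numbered 1 that stand apart alike also move hearts 2 and 3 alike. The 3 values thus largely restate the sham hearts numbered 1. They do not show that the other mouse numbers match between genotypes. A replicate block in the 6 sham hearts left 0 clock genes called, as it did for all genes (0%), with Per2 at -0.36 (limma adjusted p = 1.00). With 3 hearts a group and 25 reads on Arntl in its lowest heart, small differences were not detectable.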
